A study of Mus musculus with 6 samples.

Results

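The 42 interferon-stimulated genes examined here were the rows of the liver RNA-Seq count table that bear 1 of 42 gene symbols, out of 52459 genes in the table. All 42 were present and all passed the filter on low counts. They were divided by textbook knowledge of what induces them into 24 targets of type I interferon (the Ifit, Oas and Mx genes, Rsad2, Isg15, Zbp1, Ifi44, Rtp4, Xaf1, Ifih1, Ddx58, Stat2, Irf9, Irf7 and Usp18), 14 targets of interferon gamma (Gbp2 to Gbp9, Irgm1, Irgm2, Igtp, Iigp1, Irf1 and Irf8) and 4 further interferon regulatory factor genes, Irf2, Irf3, Irf4 and Irf5, that were kept apart. Many of these genes respond to both kinds of interferon, so the division is one of degree.

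The livers came from male C57BL6J mice of the Alb-Cre/Cas9 F1 generation, aged 8 months, in which the albumin promoter, active in hepatocytes, drives the Cre that switches on Cas9. The vector AAV8-U6-sgCtrl was given to 3 mice (sgCtrl, mice 5.1, 7.1 and 7.2) and AAV8-U6-sgPrdx2 to the other 3 (sgPrdx2, mice 1.1, 1.3 and 3.2), each at 4 to 5 weeks of age. At 3 weeks after the vector both groups received diethylnitrosamine (DEN), a carcinogen for the liver, at 100 mg/kg, and 1 week later they went on the choline-deficient high-fat diet CDAHFD for 6 months, so no healthy liver was included in the comparison. The labels do not say what the parts of a mouse number stand for. No first part occurs in both groups, so anything that it marks cannot be told apart from the guide RNA, and mice that share it may not be independent. Prdx2 encodes peroxiredoxin 2, an enzyme that removes hydrogen peroxide. RNA was taken from whole liver, so the level of a gene was summed over hepatocytes and all other liver cells.

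Type I interferons are made by cells that sense viral or misplaced nucleic acids, and they signal through the receptor pair IFNAR1 and IFNAR2 to a complex that holds STAT2 and IRF9 and binds a DNA element with repeated GAAA in its target promoters. Interferon gamma, secreted by T cells and NK cells, signals through IFNGR1 and IFNGR2, and its target promoters often hold an element of the form TTCNNNGAA. In liver, hepatocytes as well as Kupffer cells and other immune cells respond to both.

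The sequences below show these elements in members from each class. Promoters were taken from RefSeq on the mouse build GRCm38.p6, and the table held 31 of the 42 members, without Usp18, Gbp4, Mx1, Gbp9, Zbp1, Iigp1, Oas2, Gbp6, Mx2, Rtp4 and Gbp8. Each line gives the 120 bases before the annotated start of transcription, 5′ to 3′ on the strand of the gene, with 2 elements in capitals. The first is a GAAA pair, GAAA followed after any 2 bases by GAAA again, read on either strand, so that TTTC followed after 2 bases by TTTC also counts. The second is TTCNNNGAA, which reads the same on both strands. The first 4 lines are type I targets with the GAAA pair.
Isg15, chr4:156200819-156200938, minus strand: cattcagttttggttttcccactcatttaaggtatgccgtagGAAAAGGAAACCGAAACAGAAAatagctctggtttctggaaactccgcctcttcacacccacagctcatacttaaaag
Oas3, chr5:120777660-120777779, minus strand: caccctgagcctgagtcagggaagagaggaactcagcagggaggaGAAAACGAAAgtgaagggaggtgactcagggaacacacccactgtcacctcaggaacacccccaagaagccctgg
Ifit1, chr19:34640769-34640888, plus strand: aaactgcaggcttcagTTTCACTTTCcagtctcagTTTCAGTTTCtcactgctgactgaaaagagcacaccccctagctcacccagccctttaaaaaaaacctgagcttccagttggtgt
Rsad2, chr12:26456453-26456572, minus strand: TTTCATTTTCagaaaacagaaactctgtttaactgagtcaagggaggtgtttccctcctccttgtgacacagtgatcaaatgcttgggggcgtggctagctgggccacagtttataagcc
The next 4 are interferon gamma targets, chosen because in these stretches 2 of them hold both elements side by side, 1 holds the first alone and 1 the second alone.
Igtp, chr11:58199436-58199555, plus strand: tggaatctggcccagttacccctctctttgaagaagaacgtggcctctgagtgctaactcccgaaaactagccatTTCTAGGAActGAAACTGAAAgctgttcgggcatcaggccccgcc
Irgm2, chr11:58214857-58214976, plus strand: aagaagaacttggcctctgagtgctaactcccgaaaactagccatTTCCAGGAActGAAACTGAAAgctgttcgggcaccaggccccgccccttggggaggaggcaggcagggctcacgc
Gbp3, chr3:142559924-142560043, plus strand: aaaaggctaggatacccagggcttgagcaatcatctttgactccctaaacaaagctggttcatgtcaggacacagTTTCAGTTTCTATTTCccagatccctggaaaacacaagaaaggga
Irf1, chr11:53769894-53770013, plus strand: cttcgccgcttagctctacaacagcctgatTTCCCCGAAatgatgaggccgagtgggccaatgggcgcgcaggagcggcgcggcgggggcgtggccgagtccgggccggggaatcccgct
In Isg15, 3 overlapping GAAA pairs began 78, 72 and 66 bases before the start, and in Ifit1 further pairs began 104 and 85 bases before it. Igtp and Irgm2, neighbours on chromosome 11, shared an unbroken run of 38 bases, and in each TTCNNNGAA was followed shortly by the GAAA pair, beginning 45 and 34 bases before the start of Igtp and 75 and 64 bases before that of Irgm2. Over the whole window of 250 bases before to 50 bases after the start, the GAAA pair was found in 11 of the 18 type I targets in the table, in 7 of the 9 interferon gamma targets and in 1 of the 4 other IRF genes, against 3.99% of all 27025 genes in the table. TTCNNNGAA was found in 2 of the 18, 6 of the 9 and 1 of the 4, against 9.55% of genes. These are matches of letters, not measured binding sites.

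Total counts ranged from 37462102 to 56865293 per liver, and 3 counts, the smallest number taken as detected, stood for 0.0555 to 0.0921 normalized CPM (counts scaled to library size, with edgeR's TMM factors of 0.805 to 1.17), a limit that covers counting error only. No library was a copy of another, since the least different pair of livers still had a chi-square of 34.7 per degree of freedom. The first principal component held 48.6% of the variance and separated the groups, with sgPrdx2 liver 3.2 at 48.3 and the other two sgPrdx2 livers at 10.8 and 18.3. Prdx2 itself had 4783, 5247 and 6939 reads in the sgCtrl and 4345, 6052 and 4858 reads in the sgPrdx2 livers. On the log2 scale it differed by 0.01 (standard error, SE, 0.18, adjusted p = 0.983 by edgeR), so that its RNA could not be used to check the labels. A Cas9 cut need not lower an RNA, and why the RNA did not differ was not tested. By staining of livers of this mouse model, the authors reported suppressed PRDX2 protein in hepatocytes, with some positive islets.

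The question put to the data was whether interferon targets differed between sgPrdx2 and sgCtrl livers, and whether type I and interferon gamma targets did so to the same extent. The median log2 fold change of the 24 type I targets was -0.92, within a range of -1.47 to -0.24, and that of the 14 interferon gamma targets was -0.51, within a range of -0.96 to 0.24, beside -0.02 for all 17032 genes tested. Of the 42 members, 38 had a negative fold change, where 51.7% of all genes did. Gbp4, a guanylate-binding protein, was the only member that passed an adjusted p of 0.05 in edgeR's quasi-likelihood test, where 3.33% of all genes were called, 1.54% lower and 1.79% higher in sgPrdx2 livers. DESeq2 called 12 members lower, beside 5.81% of the genes for which it gave an adjusted p. These were Ifit1, Ifit2, Ifit3b, Oas2, Oas3, Oasl2, Mx1, Rsad2, Ifi44, Gbp3, Gbp4 and Irf8.

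At an adjusted p of 0.1, edgeR called 7 members lower (4.71% of all genes), of which 5 were type I targets. At an unadjusted p of 0.05 it placed 17 of the 24 type I targets and 6 of the 14 interferon gamma targets below, where 11.9% of all genes lay, and none of the 42 above. In 12 members every sgPrdx2 liver lay below every sgCtrl liver, 7 among the type I targets (29.2%) and 5 among the interferon gamma targets (35.7%), beside 17.5% of all genes. In 2 members, Iigp1 and Irf3, every sgPrdx2 liver lay above every sgCtrl liver, beside 16.7% of all genes. In the remaining 28 the groups overlapped. A two-sided exact permutation test on 1 gene cannot give less than p = 0.1 with 3 livers against 3. In whole liver, fewer cells of a type and less RNA per cell cannot be told apart.

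**Figure D1:**
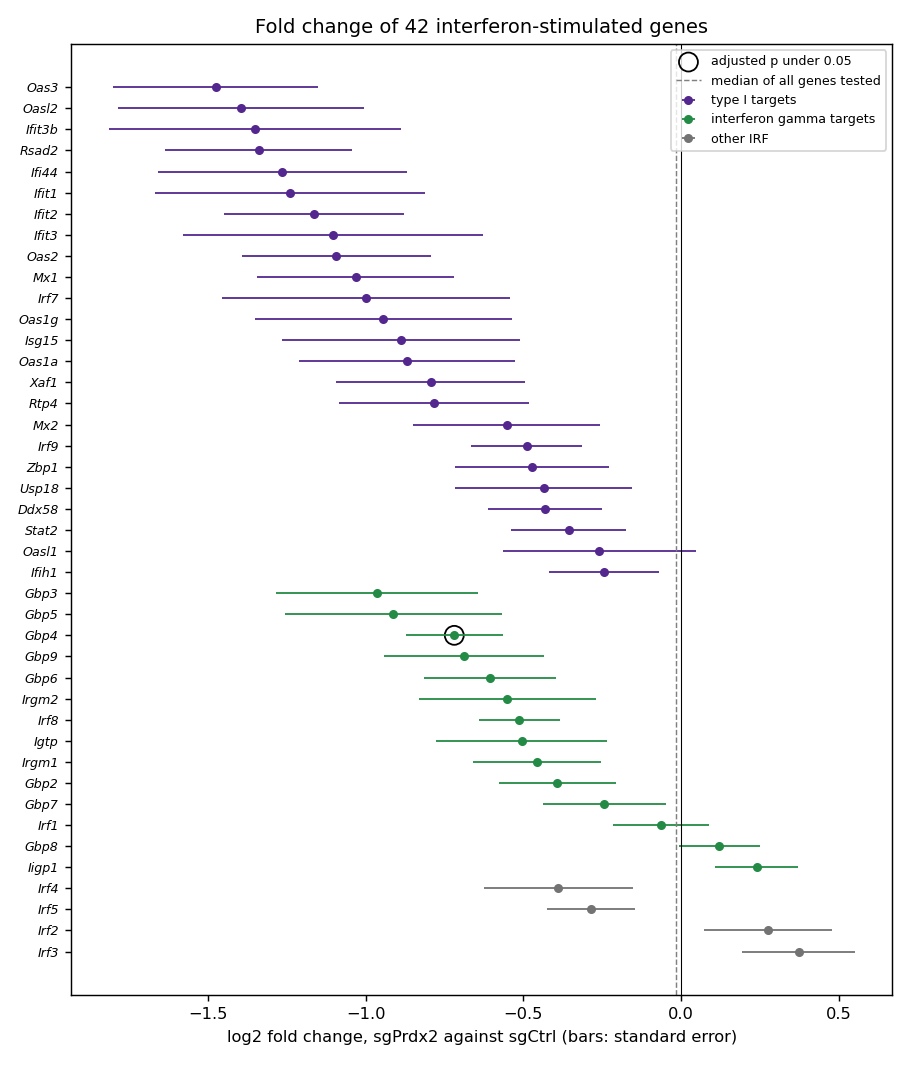
Log2 fold change of each member, sgPrdx2 against sgCtrl livers (points, with the standard error of edgeR's fit as bars), ordered within type I targets, interferon gamma targets and other IRF genes. All 24 type I targets lie left of 0, Oas3 farthest at -1.47, and Gbp4 (-0.72) carries the circle of an adjusted p under 0.05.

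The 4 IFIT genes encode proteins that bind foreign RNA and block its translation, and lie side by side at chr19:34550694-34650009 (GRCm38, GENCODE annotation). Their median log2 fold change was -1.20. Ifit2 stood at 35.5, 18.6 and 25.4 CPM in sgCtrl livers 5.1, 7.1 and 7.2 and at 15.6, 11.4 and 8.48 CPM in sgPrdx2 livers 1.1, 1.3 and 3.2. It was the only IFIT gene in which the groups did not overlap, with a log2 fold change of -1.16 (SE 0.29, adjusted p = 0.0652 by edgeR). Ifit3b was at 29.6, 7.01 and 13.3 CPM in the sgCtrl livers, in the same order, and at 7.84, 5.38 and 6.36 CPM in the sgPrdx2 livers. Ifit3, the IFIT gene of the highest level per length (27.6 CPM per kb of exon, averaged over the 6 livers), was at 116, 25.9 and 54.9 CPM against 30.2, 23.4 and 38.2 CPM. In both, sgCtrl liver 5.1 was the highest of the 6 and sgCtrl liver 7.1 lay within the range of the sgPrdx2 livers. Their log2 fold changes were -1.35 (SE 0.46, adjusted p = 0.132) for Ifit3b and -1.10 (SE 0.48, adjusted p = 0.200) for Ifit3. Ifit3 shares 51.2% and Ifit3b 44.95% of the 50-base stretches of its transcripts with other genes, so that the split of reads between them is uncertain. Summed into 1 feature, they gave -1.15 (SE 0.47, adjusted p = 0.181).

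The OAS enzymes make 2-5A, the second messenger that switches on the RNA-degrading enzyme RNase L, while the OAS-like Oasl1 and Oasl2 lie apart from the main cluster on chromosome 5. The 6 genes had a median log2 fold change of -1.02, and in Oas2, Oas3 and Oasl2 every sgPrdx2 liver lay below every sgCtrl liver. Oas3, which had the lowest fold change of all members, stood at 22.4, 8.41 and 18.5 CPM in sgCtrl livers 5.1, 7.1 and 7.2 and at 5.58, 6.21 and 5.93 CPM in sgPrdx2 livers 1.1, 1.3 and 3.2. The sgPrdx2 livers were close to each other, whereas the sgCtrl livers were spread (log2 fold change -1.47, SE 0.32, adjusted p = 0.0533 by edgeR). Oas2 was at 57.1, 22.0 and 38.2 CPM against 17.6, 19.4 and 18.1 CPM, a log2 fold change of -1.09 (SE 0.30, adjusted p = 0.0832). Oasl2 was at 183, 52.5 and 107 CPM against 44.2, 38.2 and 47.7 CPM, a log2 fold change of -1.39 (SE 0.39, adjusted p = 0.0864). In both the gap between the groups was set by sgCtrl liver 7.1. Oasl1, the OAS family member of the highest level per length (22.1 CPM per kb), stood at 75.2, 45.2 and 68.2 CPM against 49.2, 33.4 and 75.2 CPM. Liver 3.2 of the sgPrdx2 group was as high as the highest sgCtrl liver, and the log2 fold change was -0.26 (SE 0.31, adjusted p = 0.625). Oas1a and Oas1g share 57.6% and 45.7% of their stretches with other genes and had a summed log2 fold change of -0.89 (SE 0.36, adjusted p = 0.178).

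The remaining 8 antiviral effectors had a median log2 fold change of -0.84 and a range of -1.34 to -0.47. Rsad2, which encodes viperin, an enzyme that makes a chain-terminating nucleotide, stood at 27.6, 27.1 and 49.3 CPM in the sgCtrl livers and at 16.4, 15.4 and 9.24 CPM in the sgPrdx2 livers. It was the only type I target with its highest value in sgCtrl liver 7.2, and the groups did not overlap (log2 fold change -1.34, SE 0.30, adjusted p = 0.0538 by edgeR). Mx1, a dynamin-like GTPase, was at 23.1, 9.03 and 16.1 CPM against 8.61, 6.68 and 8.35 CPM. The groups were separated by the small gap between sgCtrl liver 7.1 and sgPrdx2 liver 1.1 (log2 fold change -1.03, SE 0.31, adjusted p = 0.103). Isg15, a ubiquitin-like modifier that had the highest level per length of all members (68.4 CPM per kb), was at 85.7, 30.1 and 85.4 CPM against 32.4, 30.3 and 46.3 CPM. Here sgCtrl liver 7.1 was the lowest of the 6 livers (log2 fold change -0.89, SE 0.38, adjusted p = 0.195). Ifi44, Xaf1, Rtp4, Mx2 and the nucleic acid sensor Zbp1 overlapped between the groups, with log2 fold changes of -1.26, -0.79, -0.78, -0.55 and -0.47. Mx2 is annotated as a polymorphic pseudogene.

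The 2 RNA sensors and the 4 signalling and feedback genes had median log2 fold changes of -0.34 and -0.46. Ddx58, which encodes the sensor RIG-I, was at 75.1, 52.8 and 62.2 CPM in the sgCtrl livers and at 55.6, 45.5 and 39.9 CPM in the sgPrdx2 livers (log2 fold change -0.43, SE 0.18, adjusted p = 0.189). Ifih1, which encodes the sensor MDA5, was at 79.7, 55.9 and 62.0 CPM against 64.2, 53.8 and 48.8 CPM (log2 fold change -0.24, adjusted p = 0.417). In both genes sgPrdx2 liver 1.1 lay above sgCtrl liver 7.1. Irf9, the DNA-binding partner of STAT2, stood at 84.6, 54.1 and 76.8 CPM against 53.1, 49.2 and 51.3 CPM, without overlap (log2 fold change -0.49, SE 0.18, adjusted p = 0.145). Irf7, the factor that amplifies type I interferon production, was at 474, 114 and 305 CPM against 137, 115 and 196 CPM. All 3 sgPrdx2 livers lay above sgCtrl liver 7.1 and below the other two sgCtrl livers (log2 fold change -0.998, SE 0.46, adjusted p = 0.224). Stat2 and Usp18, an inhibitor of the type I receptor, had log2 fold changes of -0.36 and -0.43 with overlapping groups.

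**Figure D2:**
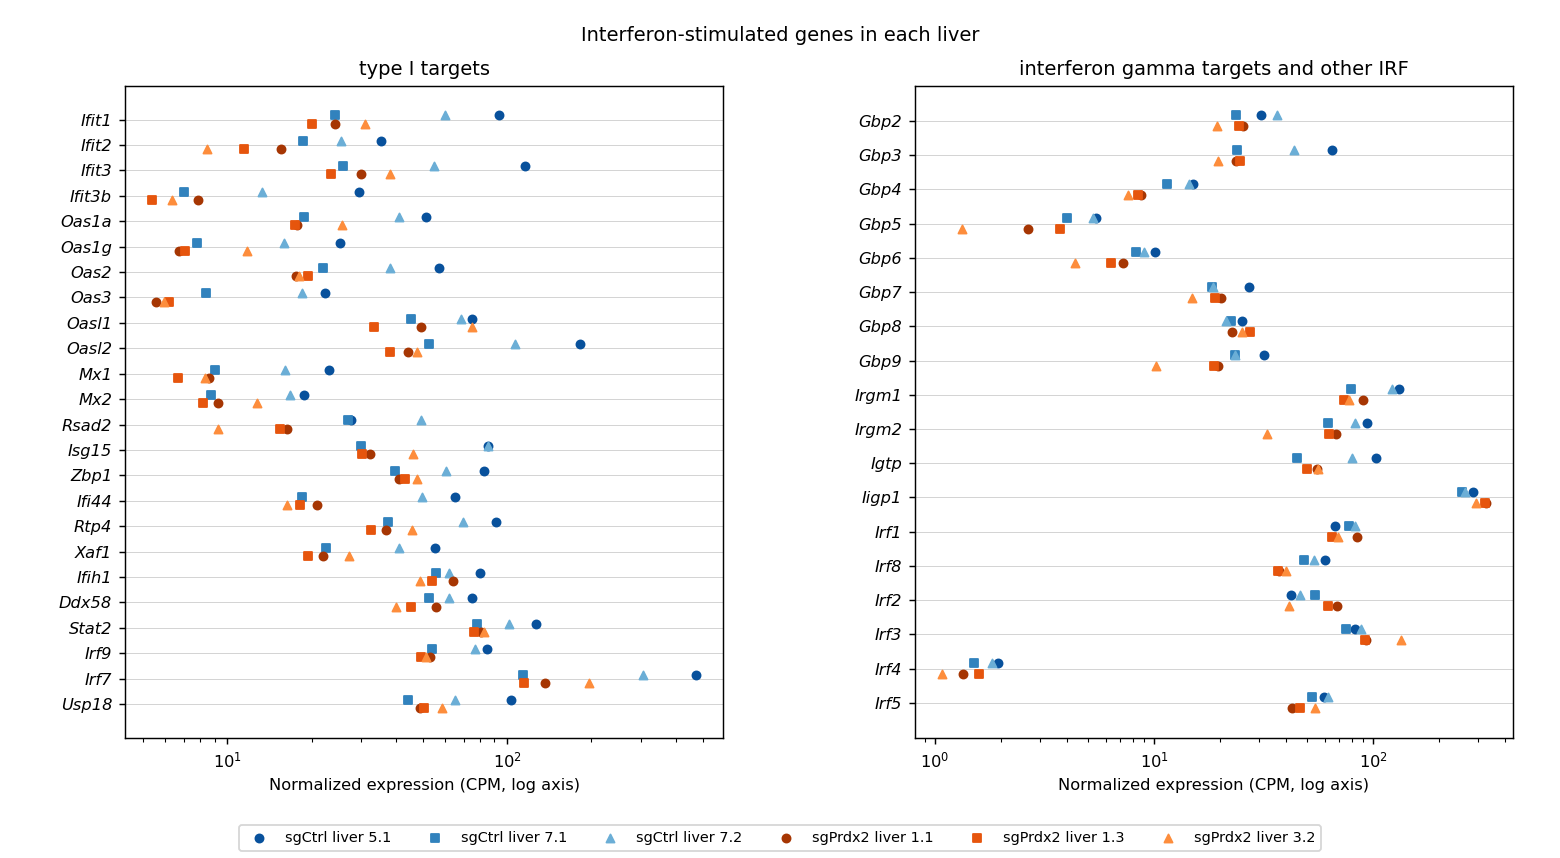
Normalized expression (CPM, log axis) of each member in each of the 6 livers, type I targets at left, interferon gamma targets and other IRF genes at right, each liver drawn as its own symbol, sgCtrl in blue and sgPrdx2 in orange. Among type I targets sgCtrl liver 5.1 is the highest point in 23 of 24 genes, and sgCtrl liver 7.1 lies below the highest sgPrdx2 liver in 17 of 24.

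Guanylate-binding proteins are GTPases that attack the vacuoles of intracellular pathogens, and their genes form clusters at chr3:142493978-142638008 (Gbp2, Gbp3, Gbp5 and Gbp7) and chr5:105014150-105293698 (Gbp4, Gbp6, Gbp8 and Gbp9). The 8 genes had a median log2 fold change of -0.65, close to each other in the clusters on chromosome 3 (-0.65) and chromosome 5 (-0.65). Gbp4 (chr5:105115767-105139586, minus strand) stood at 15.03, 11.4 and 14.4 CPM in sgCtrl livers 5.1, 7.1 and 7.2 and at 8.75, 8.41 and 7.62 CPM in sgPrdx2 livers 1.1, 1.3 and 3.2. The groups did not overlap, and the spread within each was small. Gbp4 was lower in sgPrdx2 livers, with a log2 fold change of -0.72 (SE 0.15, adjusted p = 0.0494 by edgeR), a value just inside the threshold. Over 12 other settings its adjusted p ranged from 0.00299 to 0.173, and it missed the threshold under RLE normalization (0.0519) and without any 1 of 5 of the livers. The annotated spans of Gbp4, Gbp8 and Gbp9 overlap on the same strand. Summed into 1 feature, the 3 had a log2 fold change of -0.34 (SE 0.15, adjusted p = 0.205).

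Gbp3 was at 64.9, 23.8 and 43.6 CPM in the sgCtrl livers and at 23.7, 24.7 and 19.5 CPM in the sgPrdx2 livers. Its sgCtrl livers ordered as for the IFIT and OAS genes, with liver 7.1 inside the sgPrdx2 range (log2 fold change -0.96, SE 0.32, adjusted p = 0.124). Gbp2, the Gbp gene of the highest level per length (10.6 CPM per kb), was at 30.7, 23.8 and 36.5 CPM against 25.5, 24.5 and 19.3 CPM (log2 fold change -0.39, SE 0.18, adjusted p = 0.235). Gbp5, Gbp6 and Gbp9 did not overlap between the groups and had log2 fold changes of -0.91, -0.61 and -0.69, with adjusted p of 0.132 to 0.157. Gbp5 was present at 1.32 to 5.44 CPM only, and Gbp6 shares 70.7% of its stretches with other genes. Gbp7 and Gbp8 had values of -0.24 and 0.12 with overlapping groups, and the sign of Gbp8 turned to -0.25 with scaling by total counts alone.

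Immunity-related GTPases act beside the Gbp proteins on pathogen vacuoles, and no member passed the test. Irgm1 was at 131, 79.4 and 121 CPM in the sgCtrl livers and at 90.3, 73.7 and 77.7 CPM in the sgPrdx2 livers (log2 fold change -0.46, SE 0.20, adjusted p = 0.211). Irgm2 was at 94.1, 62.1 and 82.6 CPM against 67.3, 62.9 and 32.7 CPM, the last value, of sgPrdx2 liver 3.2, lying apart from the others (log2 fold change -0.55, SE 0.28, adjusted p = 0.264). Igtp, whose span in the annotation overlaps that of Irgm2, had a log2 fold change of -0.50 with overlapping groups. Iigp1, the IRG gene of the highest level per length (50.1 CPM per kb), stood at 286, 254 and 261 CPM in the sgCtrl livers and at 327, 325 and 295 CPM in the sgPrdx2 livers. Each sgPrdx2 liver exceeded each sgCtrl liver by a margin that did not pass the test (log2 fold change 0.24, SE 0.13, adjusted p = 0.296), and with scaling by total counts alone the sign turned (-0.13).

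Irf8, a transcription factor of macrophages and dendritic cells that interferon gamma also induces, stood at 60.5, 48.2 and 53.6 CPM in the sgCtrl livers and at 37.3, 36.6 and 39.9 CPM in the sgPrdx2 livers. The groups did not overlap (log2 fold change -0.51, SE 0.13, adjusted p = 0.0672 by edgeR). Irf1, the early factor of the interferon gamma response, was at 66.9, 77.5 and 83.0 CPM against 84.3, 64.6 and 68.8 CPM. Its highest and lowest values both came from sgPrdx2 livers, and its log2 fold change was -0.06 (SE 0.15, adjusted p = 0.820). Among the other IRF genes, Irf3, the factor that RNA and DNA sensors activate by phosphorylation, was at 82.3, 75.2 and 88.0 CPM against 92.4, 91.8 and 134 CPM. All sgPrdx2 livers lay above all sgCtrl livers (log2 fold change 0.37, SE 0.18, adjusted p = 0.240), but the value was -0.01 with scaling by total counts alone. Irf2, a repressor of interferon targets, was at 42.1, 54.1 and 46.1 CPM against 68.6, 62.2 and 41.4 CPM. Its groups overlapped (log2 fold change 0.28, SE 0.20, adjusted p = 0.426), and the sign turned (-0.08) with that scaling. Irf5 was at 59.9, 52.4 and 62.4 CPM against 42.8, 46.3 and 54.4 CPM, with 1 sgPrdx2 liver inside the sgCtrl range (log2 fold change -0.29, SE 0.14, adjusted p = 0.250). Irf4, a factor of lymphocytes, had the lowest level per length of all members (0.316 CPM per kb).

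The sgCtrl livers were spread widely in the type I targets. Liver 7.1 was the lowest sgCtrl liver in all 24, liver 5.1 was the highest of the 6 livers in 23, and the ratio of liver 5.1 to liver 7.1 had a median of 2.502 (range 1.02 to 4.48). For the interferon gamma targets that ratio had a median of 1.33, and for all genes of 0.999. As a mean over the class on the log2 scale, relative to the mean of the 6 livers, type I targets stood at 0.96, -0.32 and 0.54 in sgCtrl livers 5.1, 7.1 and 7.2 and at -0.36, -0.54 and -0.27 in sgPrdx2 livers 1.1, 1.3 and 3.2. By this measure sgCtrl liver 7.1 lay between sgPrdx2 livers 3.2 and 1.1, and the SD was 0.65 among sgCtrl and 0.14 among sgPrdx2 livers (n = 3 each). Interferon gamma targets stood at 0.45, -0.05 and 0.27 against -0.08, -0.12 and -0.47, with SDs of 0.25 and 0.21 (n = 3 each). Here the groups did not overlap, liver 7.1 lay just above the highest sgPrdx2 liver, and the lowest was sgPrdx2 liver 3.2, which was the highest sgPrdx2 liver for type I targets.

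**Figure D3:**
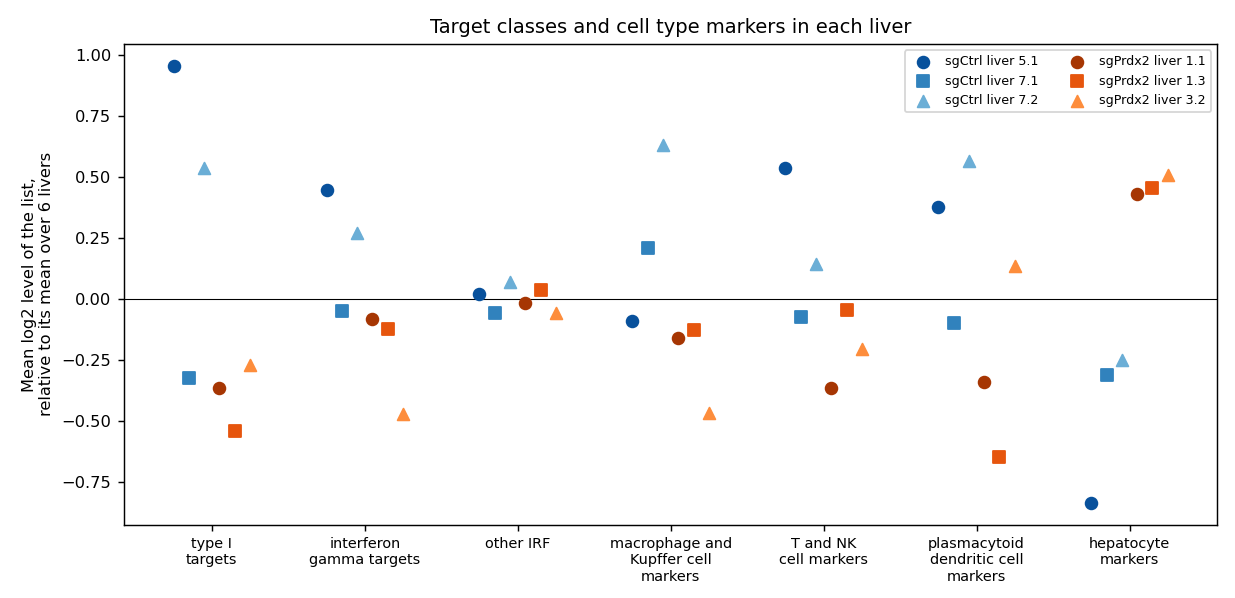
Mean log2 level of each target class and of the marker lists for macrophages and Kupffer cells, T and NK cells, plasmacytoid dendritic cells and hepatocytes. Values are relative to the mean of the same list over the 6 livers (1 point per liver, sgCtrl in blue, sgPrdx2 in orange). The other marker lists are not drawn. For type I targets sgCtrl livers 5.1 (0.96) and 7.2 (0.54) stand above a cluster of sgCtrl liver 7.1 (-0.32) and the 3 sgPrdx2 livers.

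The difference between the class medians, interferon gamma minus type I, was 0.41 on the log2 scale, and it rested largely on liver 5.1. Without that liver the medians were -0.49 for type I and -0.40 for interferon gamma targets, a difference of 0.09. Without sgCtrl liver 7.1 they were -1.26 and -0.66, and edgeR then called 12 members lower, beside 1.02% of the genes tested in that fit, namely Ifit1, Oas1a, Oas2, Oas3, Oasl2, Mx1, Isg15, Ifi44, Rtp4, Xaf1, Gbp3 and Gbp4. Leaving out any 1 of the other 5 livers left no member called, with 8 to 22 at an unadjusted p under 0.05. Over all genes those 5 fits called from 0, without sgCtrl liver 5.1, to 619, without sgPrdx2 liver 3.2. Across all 6 fits with 1 liver left out, 3114 to 4436 genes had an unadjusted p under 0.05. Without sgPrdx2 liver 3.2, the liver that stood apart on the first principal component, the medians were -1.06 and -0.42. The sign of both medians was negative in each of these 6 fits.

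**Figure D4:**
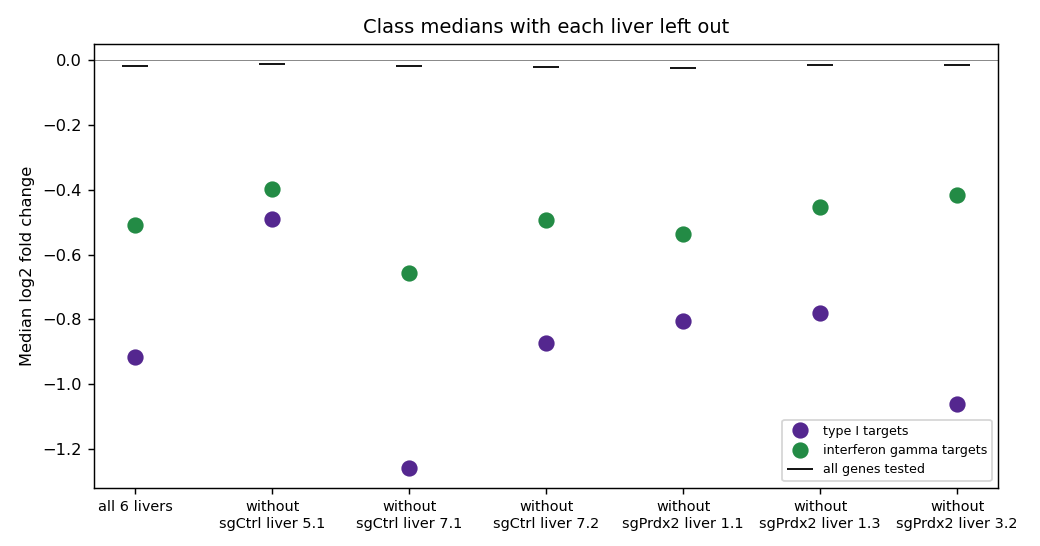
Median log2 fold change of type I targets (purple), interferon gamma targets (green) and all genes tested (black bars), with all 6 livers and with each liver left out in turn. The type I median runs from -1.26 without sgCtrl liver 7.1 to -0.49 without sgCtrl liver 5.1, while that of interferon gamma targets runs from -0.66 to -0.40.

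The interferons themselves were near the limit of detection. Of 20 type I and type III interferon genes in the table, 16 had no read in any liver and the other 4 (Ifna9, Ifnb1, Ifnk and Ifnz) had 7 reads in all, so that a difference between the groups was not detectable at this depth. Ifng, the interferon gamma gene, was counted 4 to 9 times in sgCtrl and 3 to 6 times in sgPrdx2 livers and did not pass the filter. Of 5 tested genes among interferon gamma and its inducers none was called. The smallest p belonged to Il18, at 11.01, 9.39 and 11.4 CPM in the sgCtrl and 13.4, 13.6 and 14.9 CPM in the sgPrdx2 livers (log2 fold change 0.40, adjusted p = 0.129), and to Il12b (-0.69, adjusted p = 0.335).

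None of the 6 receptor genes passed the test. Ifngr1 was at 84.1, 77.9 and 94.6 CPM in the sgCtrl livers and at 60.6, 64.9 and 59.2 CPM in the sgPrdx2 livers, without overlap (log2 fold change -0.47, SE 0.13, adjusted p = 0.0804). For Il10rb, a chain of the type III interferon receptor shared with the interleukin 10 receptor, the value was -0.45 (adjusted p = 0.0872). The type I receptor genes Ifnar1 and Ifnar2 had values of -0.08 and 0.08 (adjusted p = 0.716 and 0.737). The kinase genes Jak1, Jak2 and Tyk2 had values of -0.33, -0.32 and -0.03, and none was called.

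Nucleic acid sensors and adaptors beyond the members had 2 calls, both lower, among 15 genes (1.54% of all genes were called lower). Tlr7, the endosomal receptor for single-stranded RNA, stood at 17.8, 10.9 and 14.4 CPM in the sgCtrl livers and at 6.81, 5.92 and 6.33 CPM in the sgPrdx2 livers. Tmem173, which encodes the adaptor STING, was at 26.8, 23.6 and 27.4 CPM against 16.1, 17.7 and 17.4 CPM. The groups were well apart in both, with log2 fold changes of -1.18 (SE 0.20, adjusted p = 0.0373) and -0.60 (SE 0.12, adjusted p = 0.0455). In 11 of the 15 genes every sgPrdx2 liver lay below every sgCtrl liver, beside 17.5% of all genes, and the list's median was -0.56. Of 5 tested negative regulators none was called. Ptpn6 had a value of -0.38 (adjusted p = 0.113) and Socs3, at 22.0, 38.4 and 31.5 CPM against 38.5, 71.3 and 40.9 CPM, had 0.71 (adjusted p = 0.172).

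Interferon targets outside the 42 were described by the same division. Of 30 other type I targets, 26 had a negative fold change, where 51.7% of all genes did, and the median was -0.49. There was 1 call, where 1.54% of all genes were called lower, and this was Cmpk2, a nucleotide kinase gene next to Rsad2 in the genome. It stood at 18.0, 15.4 and 22.9 CPM in the sgCtrl livers and at 11.4, 8.67 and 6.82 CPM in the sgPrdx2 livers, with no overlap (log2 fold change -1.06, SE 0.22, adjusted p = 0.0491). Of 26 tested other interferon gamma targets, 14 had a negative and 12 a positive fold change, and the median was -0.05, close to that of all genes. The 1 call, beside the same 1.54% of all genes, was Tgtp2, a gene whose name stands for T cell-specific GTPase. It stood at 4.93, 2.89 and 5.52 CPM against 1.91, 1.78 and 1.90 CPM (log2 fold change -1.26, SE 0.26, adjusted p = 0.0486 by edgeR). Tgtp1, near it on chromosome 11, overlapped between the groups (log2 fold change -0.54, SE 0.28, adjusted p = 0.267 by edgeR). How reads were split between these genes was not tested.

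**Figure D5:**
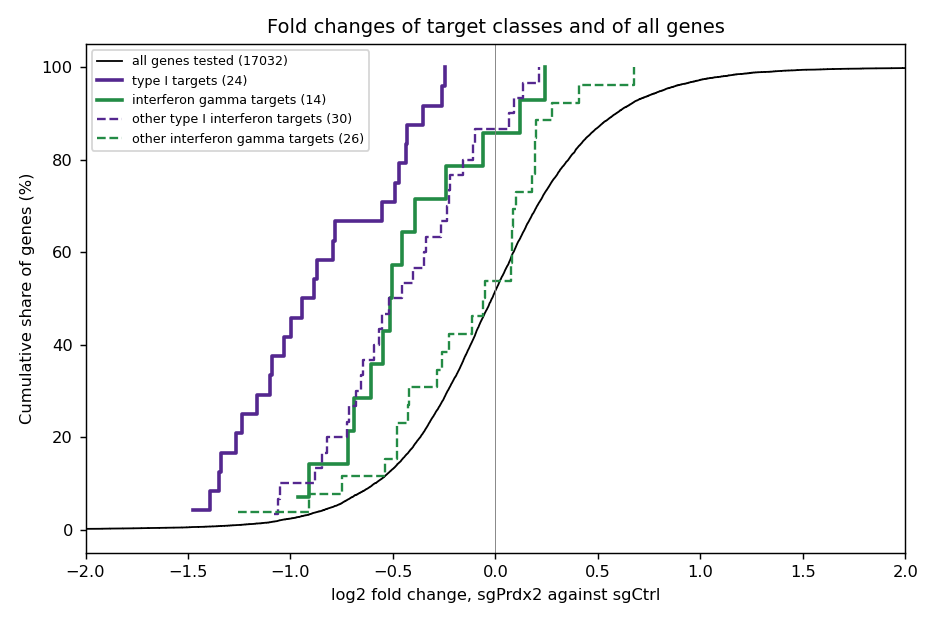
Cumulative share of genes (%) against log2 fold change, sgPrdx2 against sgCtrl, for all 17032 genes tested (black), the members (solid) and other targets of each interferon (dashed). Type I targets (median -0.92), interferon gamma targets (-0.51) and other type I targets (-0.49) lie left of all genes (-0.02), whereas other interferon gamma targets (-0.05) lie close to them.

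Markers of the cells that make up a liver also differed between the groups. Over all genes, 51.7% had a negative fold change, 1.79% were called higher and 1.54% were called lower in sgPrdx2 livers. All 10 hepatocyte markers had positive fold changes, 5 of them called, and their summed level was 80138 to 86736 CPM in sgCtrl and 138896 to 184818 CPM in sgPrdx2 livers. Most of that sum was Alb, at 58815 to 62569 CPM in sgCtrl and 97610 to 128017 CPM in sgPrdx2 livers. All 13 macrophage and Kupffer cell markers had negative fold changes (median -0.46), 2 of them called (Mpeg1 and Itgam), and their summed level was 3333 to 3758 CPM in sgCtrl and 2311 to 3017 CPM in sgPrdx2 livers. Most of that sum was Lyz2, at 1976 to 2057 CPM in sgCtrl and 1335 to 2085 CPM in sgPrdx2 livers, where the groups overlapped. T and NK cell markers, 12 of 13 negative with a median of -0.36 and 1 call (Cd8a), summed to 38.9 to 57.3 CPM against 32.8 to 39.4 CPM. All 5 plasmacytoid dendritic cell markers were negative (median -0.70, none called), and Siglech and Ccr9, which define these cells, were at 0.573 to 4.18 CPM. The lowest value, of Cox6a2 (-1.42), rested on sgCtrl liver 7.2, at 8.30 CPM against 0.708 to 2.12 CPM in the other livers. The medians of the lists for B cells, neutrophils, sinusoidal endothelial cells, stellate cells and cholangiocytes were 0.31, -0.14, -0.33, -0.50 and -0.37, with 1 call among them (Pecam1, lower), and the neutrophil marker Ly6g was at 0 in 5 of the 6 livers. The part of these cells in the fold changes of the interferon targets was not tested.

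Cell type markers were also compared between sgCtrl livers 5.1 and 7.1, where the type I targets summed to 2082 and 823 CPM. All 13 T and NK cell markers were higher in liver 5.1, with sums of 57.3 and 38.9 CPM, as were 4 of the 5 plasmacytoid dendritic cell markers (9.64 and 7.18 CPM) and 4 of the 5 cholangiocyte markers, among them Krt19 (94.2 and 32.3 CPM). The macrophage and Kupffer cell markers were mixed, 6 of 13 being higher in liver 5.1. Their sums of 3438 and 3333 CPM consisted mostly of Lyz2 (2057 and 2002 CPM). Among the 6 higher markers, Ly6c2 stood at 9.32 CPM in liver 5.1 and 2.65 CPM in liver 7.1. Cd68 stood at 329.9 and 217 CPM, but Ccr2 at 31.3 and 29.9 CPM. The other 7 markers were lower in liver 5.1, among them all that define the list. Of these, Clec4f, which defines Kupffer cells, stood at 24.6 and 64.3 CPM. Adgre1 stood at 60.6 and 70.95 CPM, and Csf1r at 247.5 and 247.7 CPM. Of the 10 hepatocyte markers, 9 were lower in liver 5.1. In the other lists, 3 of 5 B cell, 0 of 4 neutrophil, 1 of 6 sinusoidal endothelial and 3 of 7 stellate cell markers were higher in liver 5.1. Over all genes, the median ratio of liver 5.1 to liver 7.1 was 0.999. As mean log2 levels relative to the 6 livers, the lists stood in livers 5.1 and 7.1 at 0.54 and -0.07 for T and NK cells, 0.38 and -0.10 for plasmacytoid dendritic cells, 0.45 and -0.06 for cholangiocytes, -0.09 and 0.21 for macrophages and -0.83 and -0.31 for hepatocytes. B cells stood at -0.14 and -0.20 and neutrophils at -0.32 and 0.30. Sinusoidal endothelial cells stood at 0.10 and 0.31 and stellate cells at 0.27 and 0.28. The part of these cells in the difference between the 2 livers was not tested.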

How the data were processed

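RNA of 6 whole livers (3 sgCtrl, 3 sgPrdx2) was sequenced. The authors deposited counts of reads per gene, whole numbers without normalization, and the output of DESeq2 for the same groups (mean signal, fold changes, standard errors, statistics and p-values), which was not used. The submitters' processing notes name HISAT2, HTSeq, DESeq2 and the build GRCm38; the annotation and strandedness are not given in the sources used here. Groups were taken from the labels, each liver being 1 mouse.

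The counts were tested with edgeR 4.0.16 in R 4.3.3: filterByExpr (minimum count 10), TMM, glmQLFit and glmQLFTest over all 6 livers without covariates, and Benjamini-Hochberg adjustment over 17032 genes, called at 0.05. Dispersion corresponded to a biological coefficient of variation of 0.213. The SE of a log2 fold change is its size over the square root of F. The fit was tested on simulated data. Alternatives were DESeq2 1.42.0, RLE, upper-quartile and total-count scaling, other filters, summed copies and each liver left out. Levels per kb used GENCODE exon lengths on GRCm38, and shared stretches are exact 50-base matches between its transcripts.

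Members, classes and lists were chosen with earlier results of these data known. Values per liver are given for called members, for the 2 smallest p and the highest level per length in each role, and for the 3 lowest and 3 highest fold changes. From each pathway list, called genes or else those with the 2 smallest p are named. Defining markers, ligands and receptors may also be named. Tyk2, Lyz2, Tgtp1, Cox6a2 and the called markers were named after their values were seen. A gene of the pathway is not reported here.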

Additional observations from a re-analysis of the deposited data

How the results depend on the processing

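The signs of both class medians were the same under every setting tried. The calls were not. The main edgeR fit called 567 genes (262 lower, 305 higher) and 1 member. Total-count scaling gave 3247 genes (3041 lower, 206 higher) and 26 members. It moved the medians of all genes, type I targets and interferon gamma targets to -0.39, -1.31 and -0.89. DESeq2 called 2052 genes and 12 members, the fit without a filter 1128 and 9, and an adjusted p of 0.1 gave 1767 and 7. The members called were 2 with at least 10 counts in every liver, and 0 with RLE normalization or with near-identical copies summed, where 20 and 19 had an unadjusted p under 0.05. Over all 17032 genes, RLE normalization called 568 and left 4231 at an unadjusted p under 0.05, beside 567 and 4241 in the main fit. For the strict filter and the summed copies, counts over all genes are not given here. With each liver left out, 0 to 619 genes (3114 to 4436 at an unadjusted p under 0.05) and 0 to 12 members were called. Across the fits with each liver left out, the type I median ran from -1.26 to -0.49 and the interferon gamma median from -0.66 to -0.40. Their difference ran from 0.09 to 0.65. Signs turned in Gbp8 (-0.25), Iigp1 (-0.13), Irf2 (-0.077) and Irf3 (-0.014) with total-count scaling, in Irf1 without sgCtrl mouse 7.2 (0.0086) or sgPrdx2 mouse 1.3 (0.033), and in Oasl1 without the latter (0.00039). The cause was not tested. No paired analysis was possible because the groups share no replicate numbers. With 3 livers per group, a difference that missed the threshold was not shown to be absent.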
